A study of Arabidopsis thaliana with 12 samples.

Results

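The comparison described here is the response of detached wild-type Arabidopsis thaliana leaves to 6 h of darkness. Its members were taken by genotype from the sample labels, which gives 6 of the 12 arrays of the series, 3 of leaves kept in light (WT light 1 to 3) and 3 of leaves kept in the dark (WT dark 1 to 3), and all 27827 gene-level probe sets were described. The other 6 arrays hold the same treatments in dcl1-9, a partial loss-of-function mutant of the microRNA-processing enzyme DICER-LIKE1 that had been backcrossed to Col-0. They entered the model for the estimate of the spread between arrays and for a test of the difference between the genotypes' responses.

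All wild-type plants were Col-0, 4 to 5 weeks old, and grown in a day divided equally between light and darkness. Fully expanded leaves were cut and floated on water for 6 h, either at 100.0 µE of light and 22 °C or in the dark, with the dark treatment starting 2 h after the beginning of the light period. Detachment, wounding and flotation are thus common to both groups, the leaves had no supply from or export to the rest of the plant, and every value below is a difference between these leaves and not against an intact plant. Total RNA was hybridized to a whole-transcript array, and a value is an intensity, the model-based brightness of a gene's probes after the arrays were brought to a common scale. The log2 difference given for each gene is dark minus light, so that 1 stands for a doubling in the dark, and it is followed by its standard error (SE) and by the adjusted p of limma, a linear model fitted across all genes.

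In green leaves light acts both as the source of carbon and as a signal. Phytochromes, cryptochromes and phototropins sense it, and the COP1/SPA ubiquitin ligase and the PIF transcription factors are released to act in its absence, promoting the elongation of shaded or dark-grown organs together with auxin, gibberellin and brassinosteroid. Without photosynthesis the leaf falls back on stored starch and then on lipids, amino acids and nucleic acids, and the costly synthesis of ribosomes, pigments and defence compounds is commonly reduced. Which of these hormone, transcription factor and metabolic branches moved within 6 h is the question the comparison addresses.

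Darkness altered a large part of the transcriptome. Of the 27827 probe sets, 3575 (12.8%) were higher and 4037 (14.5%) were lower in the dark at an adjusted p under 0.05, 27.4% in all. Among them 1601 (5.75%) were raised and 1979 (7.11%) lowered by more than 2-fold. The 3 dark arrays lay wholly above or wholly below the 3 light arrays for 10494 probe sets (37.7%). These shares are the background against which the counts of each pathway below are to be read, and the median log2 difference over all probe sets was 0.06. Replicate arrays of a group correlated at 0.9498 to 0.9696 over all probe sets on the log2 scale, and the median coefficient of variation was 17.1% in the light and 16.4% in the dark. Detection depended on brightness, since 5.7% of the 9185 probe sets with a mean wild-type intensity under 20 were called, against 59.2% of the brightest 878, so a dim gene that did not pass was often not measurable at this precision.

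The leaf identity of the RNA was checked with marker genes of several cell types. Genes of mesophyll cells were bright, with intensities summed over 11 markers of 11981 to 16268 in the light and 8946 to 10940 in the dark, and 8 of the 11 fell, among them the Rubisco small subunit RBCS1B (log2 difference -2.51) and the photosystem II protein PSBO2 (-2.25). Phloem markers summed to 2294 to 2536 in the light and 3323 to 4100 in the dark, with 4 of 10 higher, SWEET12 the most (1.14). Only 1 of these 4 rises held with any array left out. The 10 guard cell markers summed to 427.5 to 591.3 and 456.5 to 564.3, and the 10 epidermis and trichome markers to 1365 to 1709 and 1801 to 1938. In the guard cell list 3 were higher and 3 lower, and in the epidermis and trichome list 1 was higher and 1 lower. Of the 10 root markers 3, and of the 15 flower, seed and meristem markers 7, stayed under 20 on every wild-type array, and none of the markers was at the floor of 1 throughout. In the root list 2 were higher, and neither rise held in every fit that left out an array. In the flower, seed and meristem list 2 were higher and 2 lower. Several of the mesophyll markers are themselves light-regulated genes. In whole leaves, fewer cells of a type and less RNA per cell cannot be told apart, and the part of these shifts in the results below was not tested.

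Hormone genes were called higher in a larger share than all probe sets. Over 455 genes of hormone synthesis, transport, perception and response, 132 (29.0%) were higher and 52 (11.4%) lower in the dark, with a median log2 difference of 0.25. The hormones differed widely in direction, as the plot of hormone lists shows. Among the members past the test, rises outnumbered falls for auxin (49 against 8), brassinosteroid (19 against 2) and ethylene (14 against 1), falls outnumbered rises for jasmonate (16 against 2), and abscisic acid genes held both (15 rises and 11 falls).

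**Figure D1:**
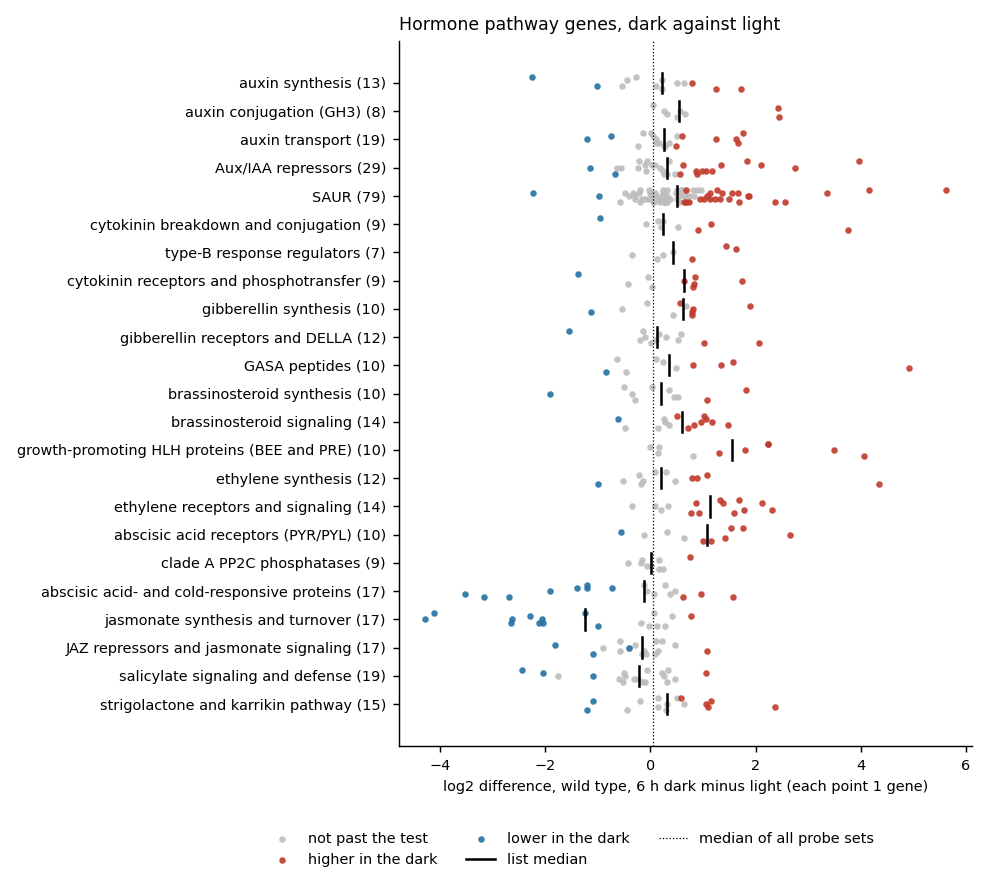
Log2 difference of each gene (dark minus light, wild type) in the hormone lists, with 1 point for each gene, coloured by whether it was higher, lower or not past the test, a bar at the median of each list and a dotted line at the median of all probe sets (0.06). Points of ethylene signaling and of the list of BEE and PRE proteins, which also holds IBH1, lie mainly to the right of the line, and those of jasmonate synthesis mainly to the left.

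Of 154 auxin genes 49 were higher, 8 were lower and 97 did not pass the test. The Aux/IAA proteins are short-lived repressors whose genes are induced by auxin itself, and 12 of 29 were higher and 2 lower (median 0.32). IAA29 (AT4G32280), also a known target of PIF factors, read 11.8, 8.11 and 11.9 on the 3 light arrays and 158, 173 and 160 on the 3 dark arrays, a log2 difference of 3.97 (SE 0.19, adjusted p = 7.15e-09). IAA2 (AT3G23030) read 91.9, 101 and 71.7 in the light and 665, 537 and 575 in the dark (2.76, SE 0.17, adjusted p = 3.8e-08). For both genes the lowest dark array lay several-fold above the highest light array. IAA17 (-1.14) and IAA8 (-0.67) were the 2 members that fell.

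SAUR genes encode small auxin-induced proteins that promote cell expansion. Of 79 SAUR probe sets 24 were higher and 2 lower, with a median of 0.51, although 38 of them had a mean under 20, and 17 of the 24 rises held whichever array was left out. AT4G38825 rose the most, from 7.22, 8.87 and 16 in the light to 398, 513 and 603 in the dark (5.63, SE 0.38, adjusted p = 9.5e-08), and SAUR22 (AT5G18050) rose from 3.83, 1.73 and 3.29 to 47.1, 41.3 and 63.2 (4.15, SE 0.31, adjusted p = 2.32e-07). SAUR genes lie in clusters of close copies, and probes of near-identical members of this and other families can share signal.

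The supply side of auxin moved less uniformly. Of 13 synthesis genes, the flavin monooxygenases YUC9 (1.73), YUC2 (1.26) and YUC5 (0.80) rose and YUC6 (-1.01) fell, whereas CYP79B2 (AT4G39950), which makes the indole-3-acetaldoxime shared by auxin and indole glucosinolates, fell from 176, 342 and 114 to 30.7, 73.6 and 27.7 (-2.26, SE 0.37, adjusted p = 0.000316). Both conjugating enzymes that passed were higher, GH3.5 (AT4G27260) at 45.8, 46.6 and 24.9 against 161, 205 and 259 (2.44, SE 0.25, adjusted p = 3.91e-06) and GH3.3 with a log2 difference of 2.43. Among carriers, the influx carrier AUX1 (AT2G38120) rose from 388, 379 and 467 to 1215, 1229 and 1388 (1.64, SE 0.13, adjusted p = 4.13e-07), and the efflux carriers PIN3 (1.67), PIN4 (1.24) and ABCB19 (1.77) rose while PIN5 (-1.21) fell. The receptor genes AFB1 (1.90) and TIR1 (0.72) rose, and the other 4 receptors were between 0.05 and 0.51 without passing the test.

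Gibberellin genes moved at several steps. GA3, ent-kaurene oxidase, which acts early in synthesis, read 33.0, 43.1 and 36.7 in the light and 139, 135 and 141 in the dark (1.89, SE 0.17, adjusted p = 1.5e-06). In all 5 of 10 synthesis genes rose and GA20OX1 (-1.13) fell, but 2 of these rises held when each array was left out in turn, and the count was 2 without WT light 1, WT light 3 or WT dark 3 and 3 without WT light 2, WT dark 2 or any dcl1-9 dark array. The DELLA repressor GAI rose from 169, 164 and 198 to 885, 651 and 698 (2.07, SE 0.15, adjusted p = 1.49e-07), and its relative RGL2 fell from 34.9, 24.1 and 32.4 to 10.5, 8.48 and 12.3 (-1.55, SE 0.26, adjusted p = 0.000421). GASA peptides are small secreted proteins that respond to gibberellin, and GASA6 (AT1G74670) read 6.04, 25.2 and 38.1 in the light and 530, 482 and 636 in the dark (4.92, SE 0.57, adjusted p = 1.28e-05). The light arrays of GASA6 differed among themselves by more than 6-fold, and the rule that picked it takes only genes whose groups do not overlap.

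Of 14 brassinosteroid signaling genes 8 were higher and 1 lower (median 0.61), and all 8 rises held when any array was left out. They included the receptor BRI1 (1.17), its partner BAK1 (0.51), the kinase BIN2 that holds the pathway back (0.97) and the transcription factors BZR1 (1.06) and BEH1 (1.48). In the synthesis pathway CPD, a cytochrome P450 that is repressed by brassinosteroid, rose from 258, 208 and 361 to 968, 879 and 1016 (1.83, SE 0.23, adjusted p = 3.27e-05) and ROT3 fell from 46.8, 63.4 and 44.0 to 12.2, 17.43 and 11.6 (-1.91, SE 0.27, adjusted p = 7.85e-05). Genes that inactivate the hormone rose too, BAS1 by 1.48, BEN1 by 0.96 and SOB7 by 0.78. The largest movement was in the BEE and PRE helix-loop-helix proteins, which act downstream of brassinosteroid, auxin and gibberellin in cell elongation. In their list of 10, which also holds IBH1, 6 were higher and none was lower, with a median of 1.56. BEE1 (AT1G18400) read 35.0, 22.2 and 97.3 in the light and 715, 677 and 716 in the dark (4.06, SE 0.38, adjusted p = 1.9e-06), and BEE3 (3.48), PRE1 (2.23), IBH1, a growth-repressing member (2.23), BEE2 (1.81) and PRE6 (1.31) rose as well.

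**Figure D2:**
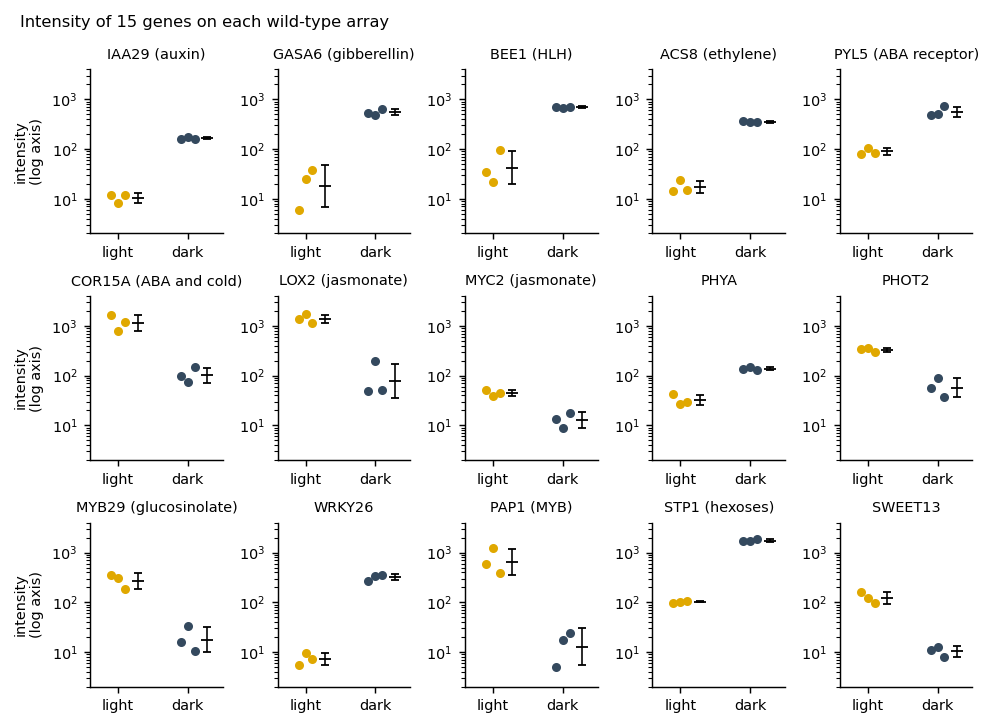
Intensity (log axis) of 15 genes on each wild-type array, with 1 point for each array, light arrays on the left and dark arrays on the right of each panel, and beside them the mean and SD computed on the log2 scale (n = 3). Genes were named mainly from those whose light and dark arrays did not overlap, as held for 37.7% of all probe sets. The separation of the points in the panels therefore follows from the choice of genes. The spread within a group is wide for GASA6 and BEE1 in the light and for LOX2, MYB29 and PAP1 in the dark.

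In the cytokinin pathway larger shares of breakdown and perception genes than of synthesis genes passed the test. Receptor and phosphotransfer genes were higher in 5 of 9 (55.6%) and lower in 1 (11.1%), against 12.8% and 14.5% of all probe sets. That fall exceeded 2-fold but did not hold in every fit that left out an array. The oxidase CKX5, which degrades cytokinin, rose from 9.27, 10.2 and 5.85 to 107, 112 and 114 (3.76, SE 0.21, adjusted p = 1.92e-08), CKX1 rose by 1.15, and CKX4 fell by 0.96. The receptor AHK2 (1.74) and the type-B response regulators ARR1 and ARR2 (1.43), which activate cytokinin target genes, also rose, ARR1 from 105, 109 and 108 to 334, 328 and 334 (1.63, SE 0.17, adjusted p = 4.8e-06). Among the type-A regulators, the feedback repressors that serve as reporters of cytokinin response, ARR16 rose (1.74), ARR8 fell (-0.98) and the other 8 of 10 did not pass. Only LOG7 (0.95) rose and IPT9 (-0.54) fell of 14 synthesis and activation genes, and the call for IPT9 was lost in some of the fits that left out a wild-type array. Of 15 strigolactone and karrikin genes 5 were higher and 2 lower, and MAX2, the F-box protein that both signals require, rose the most, from 57.2, 46.1 and 72.6 to 271, 319 and 311 (2.38, SE 0.19, adjusted p = 4.36e-07). The number of rises there dropped to 3 without WT light 1 or WT dark 2.

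Of 26 genes of ethylene synthesis and signaling 14 were higher and 1 was lower. ACS8, an ACC synthase, which catalyses the committed step of ethylene formation, read 14.5, 24.2 and 14.9 in the light and 369, 346 and 342 in the dark (4.34, SE 0.20, adjusted p = 4.02e-09), and ACO5 (1.08) and ACS11 (0.89) of the same pathway rose, while ACS4 fell (-0.996) and 7 of the 12 synthesis genes did not pass. The calls for ACS11 and ACS4 were lost in some of the fits that left out a wild-type array. In the signaling list 10 of 14 genes were higher, none was lower, and the median was 1.13. The receptor ERS1 rose from 67.6, 78.03 and 61.9 to 323, 346 and 357 (2.31, SE 0.17, adjusted p = 1.83e-07). EBF2, the F-box protein that marks EIN3 for degradation, rose from 113, 118 and 197 to 530, 613 and 665 (2.12, SE 0.20, adjusted p = 2.44e-06), and the kinase CTR1 (1.77), which represses the pathway, rose with it. EIN3 itself read 233, 253 and 137 against 647, 588 and 378 (1.38, SE 0.23, adjusted p = 0.000374), and EIL1 (1.59) and EIN2 (0.78), further positive components, rose. Negative and positive regulators of ethylene signaling were thus both among the raised genes.

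Abscisic acid genes divided by role. Of the 10 PYR/PYL receptors 6 were higher and PYL1 (-0.55) was lower, with a median of 1.08, and the fall of PYL1 did not hold in every fit that left out an array. PYL5 rose the most, from 80.5, 107 and 82.8 to 481, 508 and 725 (2.65, SE 0.20, adjusted p = 2.37e-07), followed by PYL8 (1.76), PYL6 (1.53) and PYR1 (1.42). Of the 9 clade A phosphatases that the receptors inhibit, and whose genes abscisic acid usually induces, only AHG3 passed (0.75) and the median was 0.02. The kinases SNRK2.2 (0.87) and SNRK2.3 (0.94) and the transcription factor ABF4 (1.33) rose. In synthesis NCED3, the rate-limiting dioxygenase of drought, rose from 30.0, 42.3 and 27.5 to 96.9, 76.9 and 82.6 (1.38, SE 0.22, adjusted p = 0.00021), and the zeaxanthin epoxidase ABA1 fell from 132, 140 and 128 to 44.2, 55.7 and 42.9 (-1.49, SE 0.19, adjusted p = 3.12e-05).

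Among 17 proteins that accumulate in response to abscisic acid or cold, 8 were lower, 3 higher and 6 not past the test, with a median of -0.12. With any array left out, 6 of the 8 falls held. COR15A, a chloroplast protein that protects membranes in frozen leaves, read 1648, 790 and 1214 in the light and 96.3, 73.1 and 149 in the dark (-3.52, SE 0.26, adjusted p = 2.1e-07). RD29A fell from 140, 144 and 62.5 to 16.2, 22.4 and 12.9 (-2.69, SE 0.30, adjusted p = 9.09e-06), and COR15B (-3.15), KIN2 (-1.91), RD22 (-1.38), RD29B (-1.20) and LTI30 (-1.20) fell as well. Among members past the test, receptors thus mostly rose and responsive proteins more often fell, with RD26 (1.58), COR47 (0.97) and LEA14 (0.63) the 3 responsive genes that rose.

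Jasmonate synthesis was lowered at most of its steps. Of 17 genes 10 were lower and 1 higher, the median was -1.24, and all 10 falls held with any array left out. The lipoxygenase LOX2 (AT3G45140), which starts the pathway from linolenic acid, fell from 1350, 1699 and 1129 to 49.0, 197 and 51.8 (-4.11, SE 0.44, adjusted p = 6.45e-06). The next enzymes, allene oxide synthase AOS at 641, 664 and 715 against 148, 188 and 133 (-2.12, SE 0.18, adjusted p = 8.21e-07) and the cyclase AOC2 at 136, 79.8 and 135 against 4.60, 7.89 and 5.45 (-4.28, SE 0.24, adjusted p = 2.17e-08), fell too. The peroxisomal reductase OPR3 (-2.06) and ligase OPCL1 (-1.24) and the conjugating enzyme JAR1 (-0.99), which forms the active hormone, fell as well, as did AOC1 (-2.65), AOC3 (-2.28), LOX3 (-2.63) and LOX4 (-2.04). Dark array 2 was the highest dark array for 9 of the 10 genes that fell and dark array 3 the lowest for 7, while over all 4037 probe sets that fell dark array 2 was highest for 1902.

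Jasmonate signaling moved less than synthesis. MYC2, its central transcription factor, fell from 52.3, 39.0 and 45.8 to 13.6, 8.82 and 17.8 (-1.82, SE 0.26, adjusted p = 9.26e-05). Of the JAZ repressors JAZ5 fell (-1.09), JAZ11 rose (1.07) and the other JAZ genes lay between -0.90 and 0.47 without passing, and the receptor COI1 read 0.11. The call for JAZ5 was lost in most of the fits that left out a wild-type array. Among jasmonate-inducible proteins TAT3, a tyrosine aminotransferase, read 104, 746 and 104 in the light and 12.7, 34.6 and 13.01 in the dark (-3.48, SE 0.70, adjusted p = 0.00155). Array 2 of both conditions stood 2-fold or more above the other 2 arrays for TAT3. The storage protein gene VSP1 (-3.49) and CORI3 (-2.50) also fell, whereas the ethylene- and jasmonate-dependent factor ORA59 (-0.34) and VSP2 (0.28) did not pass.

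Of 29 salicylate genes 3 were higher and 4 lower, a total share of 24.1% near the 27.4% of all probe sets. NIMIN-2, a partner of the receptor NPR1, fell from 78.5, 297 and 67.3 to 24.1, 33.9 and 27.8 (-2.04, SE 0.45, adjusted p = 0.00312), and the glucosyltransferase UGT74F2 rose from 24.2, 69.3 and 21.4 to 85.6, 115 and 95.5 (1.57, SE 0.33, adjusted p = 0.00192). PR5, a defence protein, read 236, 468 and 83.6 in the light and 17.2, 102 and 33.6 in the dark (-2.43, SE 0.70, adjusted p = 0.0172) with overlap of the groups, and it was not past the test in every fit that left out an array. Light array 2 was the highest array of all 6 for NIMIN-2 and PR5. The classical marker PR1 (-0.31), PR2 (-0.47) and the synthesis gene ICS1 (-0.33) did not pass.

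Genes of light perception responded in both directions. Of 14 photoreceptor genes 6 were higher and 3 lower, and all 9 calls held with any array left out. PHYA, the phytochrome that accumulates in darkness, rose from 42.1, 27.4 and 29.1 to 137, 150 and 128 (2.09, SE 0.18, adjusted p = 8.11e-07), together with CRY1 (1.54), PHOT1 (1.42), CRY2 (1.31) and PHYB (1.04). PHOT2, the phototropin that works in strong blue light, fell from 341, 359 and 296 to 57.7, 87.9 and 37.9 (-2.52, SE 0.26, adjusted p = 5.02e-06), and CRY3 (-1.55) and FKF1 (-1.32) fell. The 2 phototropin genes thus moved apart. PHYC, PHYD, PHYE, ZTL and the UV-B receptor UVR8 lay between -0.30 and 0.39 and did not pass.

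Of 20 genes that act downstream of the photoreceptors 7 were higher and 4 lower. HFR1, a phytochrome signaling factor, rose the most, from 13.5, 10.9 and 14 to 914, 892 and 800 (6.09, SE 0.28, adjusted p = 4.02e-09). RUP1, which switches off UVR8, read 24.1, 17.2 and 21.2 in the light and 219, 223 and 286 in the dark (3.55, SE 0.26, adjusted p = 1.83e-07). FHL, which brings phytochrome A into the nucleus, rose from 14.6, 14.3 and 15.2 to 137, 117 and 170 (3.25, SE 0.20, adjusted p = 3.83e-08), and FHY1 (1.26) and the phytochrome kinase substrates PKS4 (3.36) and PKS2 (2.55) rose. On the side of the COP1 complex SPA3 fell from 104, 73.3 and 75.2 to 21.0, 21.6 and 18.9 (-2.02, SE 0.21, adjusted p = 5.08e-06) and SPA1 fell by 1.49, whereas COP1 (-0.43) did not pass. The light-promoting factor HYH fell from 22.7, 25.1 and 7.76 to 3.03, 2.09 and 3.65 (-2.53, SE 0.39, adjusted p = 0.000167), and its homologue HY5 read -0.04.

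The list of phytochrome-interacting factors and their partners had 6 of 9 higher and 1 lower, and 4 of the 6 rises held with any array left out. PIL1, a marker of the shade response, rose from 25.8, 19.3 and 20.4 to 229, 245 and 152 (3.24, SE 0.21, adjusted p = 6.97e-08), with PAR1 (2.94) and PIL2 (2.91). Among the main PIF genes, PIF5 (0.76), PIL5 (0.67) and PIF4 (0.62) rose by less than 2-fold, PIF7 fell (-1.14) and PIF3 (0.40) did not pass. Of 7 photoprotection genes 4 were lower and 1 higher, led by NPQ4, the PsbS protein that triggers the dissipation of excess light, from 1506, 1396 and 1536 to 232, 345 and 383 (-2.24, SE 0.16, adjusted p = 1.55e-07). Of the plastid sigma factors, which direct transcription of chloroplast genes, SIGD (-1.26), SIGE (-0.79) and SIG3 (-0.58) fell and none rose. The falls of SIGE and SIG3 did not hold in every fit that left out an array.

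Of 14 daytime and evening clock genes 4 were higher and 4 lower, and of 9 morning genes 3 were higher and 1 lower. CCA1 (24.4, 33.8 and 21.7 in the light and 34.8, 26.8 and 23.7 in the dark), LHY (0.37) and TOC1 (0.09) did not pass, and for CCA1 the groups overlapped. ELF4 of the evening complex fell from 163, 123 and 205 to 34.0, 42.7 and 37.5 (-2.08, SE 0.19, adjusted p = 1.9e-06) while its partners ELF3 (0.97) and LUX (0.70) rose. LNK1, a light-inducible activator of daytime genes, fell from 59.5, 58.3 and 38.7 to 19.3, 14.2 and 9.49 (-1.90, SE 0.26, adjusted p = 6.24e-05). The DOF factor CDF3, which delays flowering, fell from 173, 146 and 128 to 53.2, 43.6 and 26.7 (-1.90, SE 0.26, adjusted p = 6.36e-05), and the MYB-like genes EPR1 at AT1G18330 (1.15), RVE1 (1.06) and RVE4 (1.01) rose.

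Transcription factor families were next surveyed as a whole. Of 1254 genes in 23 families, 212 (16.9%) were higher and 106 (8.45%) lower, a total share of 25.4% that was close to the 27.4% of all probe sets, and 511 of them had a mean under 20. Families with a large share of rises were the duplicated homeodomain-like (GT factor) proteins with 6 of 18 higher and none lower, HD-ZIP with 12 of 37 higher and 1 lower, heat shock factors with 6 of 21 (28.6%), growth-regulating factors with 3 of 11 (27.3%), GRAS with 9 of 35 (25.7%) and AP2/ERF with 29 of 118 higher and 11 lower. Among the growth-regulating factors 1 gene fell, and only 1 of the 3 rises held with any array left out. That family also takes in the interacting factor GIF2. TCP and NF-Y held more falls than rises, 5 against 3 of 24 and 8 against 6 of 36. Their shares lower were 20.8% and 22.2%, against 14.5% of all probe sets, and their medians were 0.14 and -0.02. With any array left out, 5 TCP falls and 6 NF-Y falls held, as did 0 TCP rises and 5 NF-Y rises. MADS-box genes, mostly factors of flowers and seeds, were rarely called, 7 higher and 2 lower of 118, and 82 of them had a mean under 20.

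**Figure D3:**
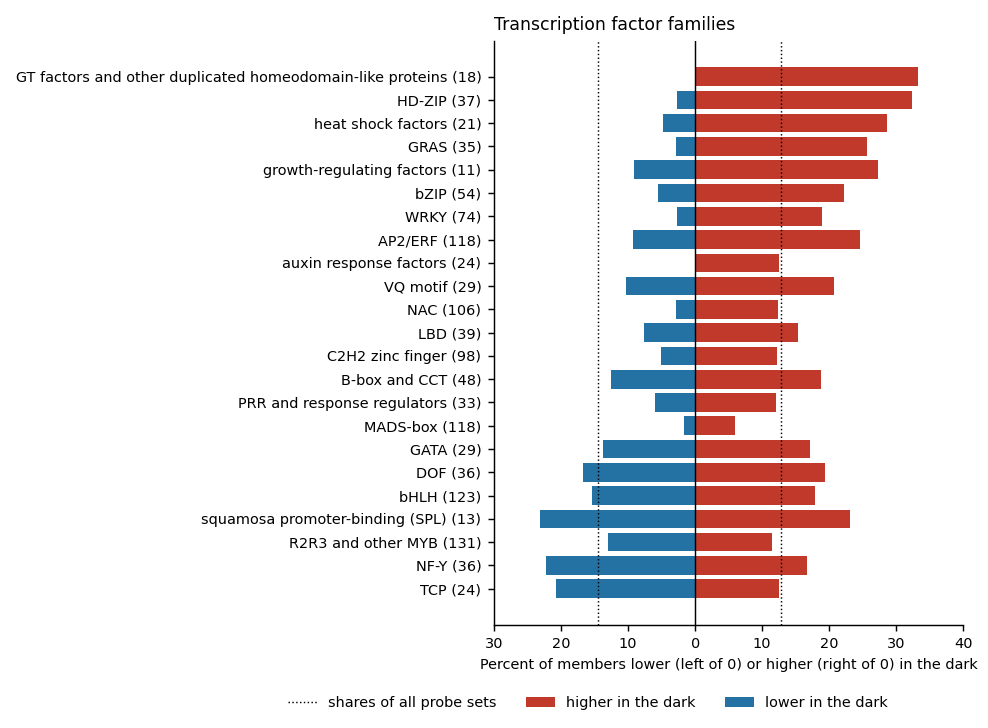
Percent of the members of each transcription factor family (number of genes in parentheses) that were higher in the dark (right of 0) or lower in the dark (left of 0), with dotted lines at the shares of all probe sets, 12.8% higher and 14.5% lower. HD-ZIP and the duplicated homeodomain-like proteins reach above 30% higher, and NF-Y and TCP extend farthest to the left apart from the 13 SPL genes.

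Among single factors the AP2/ERF protein AT1G36060 rose from 5.93, 6.33 and 4.44 to 275, 283 and 358 (5.78, SE 0.24, adjusted p = 2.06e-09). EBP, a factor of the ethylene response, rose from 73.2, 71.9 and 106 to 1540, 1411 and 1535 (4.18, SE 0.21, adjusted p = 7.15e-09). In the WRKY family, best known for defence and senescence, 14 of 74 genes were higher and 2 lower. WRKY26 read 5.55, 9.75 and 7.36 in the light and 273, 332 and 362 in the dark (5.44, SE 0.25, adjusted p = 4.02e-09), and WRKY22 (3.20) and WRKY45 (2.42) followed. WRKY54, a regulator of salicylate-related defence, fell from 379, 634 and 225 to 76.8, 107 and 60.3 (-2.25, SE 0.36, adjusted p = 0.00024).

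NAC factors, which include the main regulators of leaf senescence, included 13 rises and 3 falls among 106 genes, close to the 12.8% of all probe sets for rises. AT3G29035 rose from 8.23, 8.88 and 7.82 to 100, 148 and 92.8 (3.75, SE 0.20, adjusted p = 1.6e-08), and AT5G39610, the age-dependent factor also called ORE1, rose from 18.0, 24.5 and 25.8 to 189, 293 and 275 (3.46, SE 0.22, adjusted p = 5.06e-08). The bZIP family had 12 of 54 higher and 3 lower. Its largest rises were BZO2H3 (bZIP63) at 13.4, 9.67 and 20.0 against 250, 199 and 206 (3.98, SE 0.36, adjusted p = 1.25e-06) and bZIP1 (3.60), a pair of factors that bind DNA together and act in energy deprivation. BZIP61 (2.08) and TGA1 (1.66) also rose.

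Of the HD-ZIP factors, HB-2 and HAT1, both known as shade-induced genes, rose, HB-2 from 155, 205 and 128 to 747, 649 and 617 (2.07, SE 0.19, adjusted p = 1.58e-06) and HAT1 from 93.6, 66.7 and 156 to 417, 339 and 531 (2.09, SE 0.28, adjusted p = 5.44e-05). The B-box proteins moved to both sides. BBX27 rose from 14.6, 15.0 and 30.6 to 237, 211 and 320 (3.74, SE 0.44, adjusted p = 1.47e-05) and BBX18 fell from 162, 183 and 153 to 18.0, 20.0 and 14.9 (-3.24, SE 0.20, adjusted p = 4.91e-08). In the LBD family LBD41 (3.07) and LBD38 (2.35), the latter a repressor of nitrate and anthocyanin genes, rose, and LBD21 fell from 115, 151 and 124 to 13.5, 15.1 and 15.6 (-3.14, SE 0.19, adjusted p = 3.78e-08). TCP2, a factor of leaf differentiation, fell from 584, 531 and 448 to 169, 183 and 156 (-1.61, SE 0.14, adjusted p = 1.22e-06), with TCP9 (-1.60) and TCP4 (-1.23).

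MYB factors included 17 falls and 15 rises among 131 genes, and the count of rises dropped to 9 without WT light 3. PAP1 at AT1G56650, the activator of anthocyanin synthesis, read 575, 1251 and 387 in the light and 4.92, 17.6 and 24.3 in the dark (-5.67, SE 0.57, adjusted p = 3.48e-06), the largest fall among the 1254 genes of these families. MYB29 and MYB34, which activate glucosinolate genes, fell as well and are taken up below. The bHLH family had 22 of 123 higher (17.9%) and 19 lower (15.4%), against 12.8% and 14.5% of all probe sets. HFR1, which restrains the shade response, rose the most (6.09), HBI1, which promotes cell elongation, rose by 3.10, and the iron-deficiency factors bHLH100 (-4.85) and bHLH39 (-4.15) fell.

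Other families gave single large responses. The floral factor PI, of the MADS family, read 7.02, 9.03 and 6.26 in the light and 81.6, 32.4 and 84.7 in the dark (3.05, SE 0.34, adjusted p = 1.09e-05), while AP3, with which it acts in petals and stamens, read -0.13 and did not pass. The heat shock factor genes HSFA7A (2.51) and HSFB2A (2.38) rose, 6 of 21 in that family higher and 1 lower. The DOF factor AT1G69570 rose from 7.61, 11.5 and 8.36 to 101, 80.8 and 94.8 (3.35, SE 0.26, adjusted p = 3.66e-07). Of the C2H2 zinc finger proteins AT2G28200 rose most (3.03), and of the GATA factors GATA7 fell by 2.35.

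Metabolic pathways fell more often than they rose. Of 101 genes of carbon metabolism 44 were lower and 8 higher, and of 58 genes of secondary metabolism 34 were lower and 3 higher, against 14.5% and 12.8% of all probe sets. The plot of metabolic pathways shows that aliphatic glucosinolate synthesis had the lowest median of the lists drawn. Nucleotide breakdown and part of lipid breakdown lie on the other side.

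**Figure D4:**
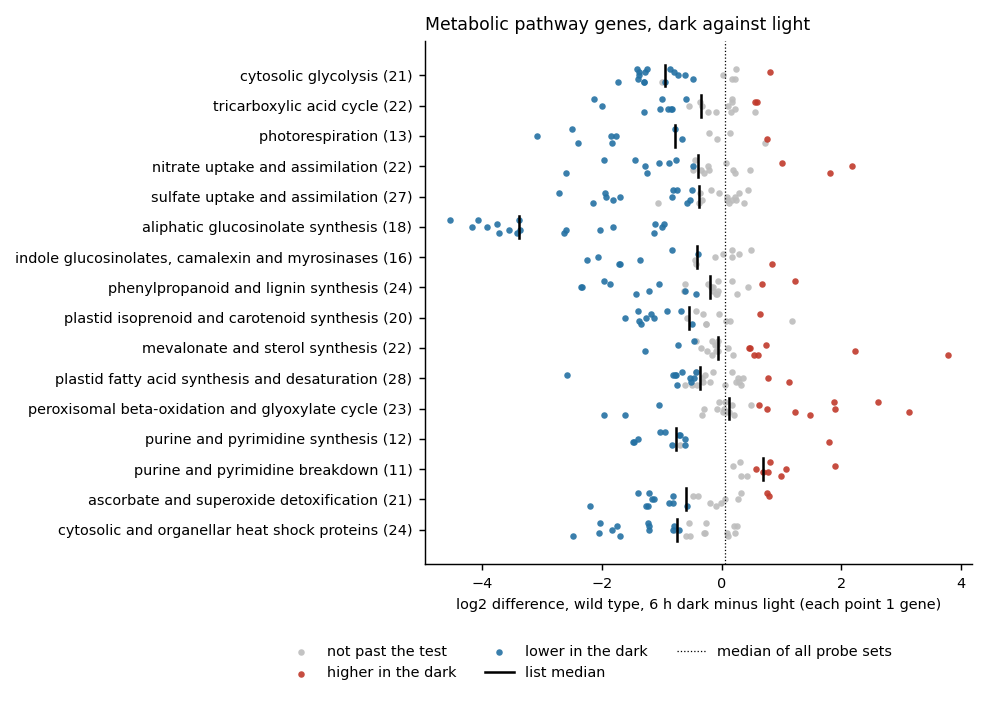
Log2 difference of each gene (dark minus light, wild type) in 16 metabolic lists, with 1 point for each gene, coloured by call, a bar at each list's median and a dotted line at the median of all probe sets. The median of aliphatic glucosinolate synthesis is -3.38, those of glycolysis and photorespiration are -0.95 and -0.78, and that of purine and pyrimidine breakdown is 0.69.

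In glycolysis 15 of 21 cytosolic enzymes were lower and 1 was higher (median -0.95). PGAM2, a phosphoglycerate mutase, fell from 613, 866 and 537 to 184, 274 and 157 (-1.72, SE 0.21, adjusted p = 2.32e-05), with GAPC1 (-1.41) and PPC2 (-1.38), a phosphoenolpyruvate carboxylase. HXK1, hexokinase and glucose sensor, fell from 153, 159 and 141 to 59.0, 59.1 and 54.6 (-1.39, SE 0.13, adjusted p = 1.97e-06). In the tricarboxylic acid cycle 9 of 22 were lower and 2 higher, led by FUM2, the cytosolic fumarase that lets Arabidopsis store fumarate by day, from 230, 218 and 209 to 48.0, 73.9 and 34.5 (-2.14, SE 0.29, adjusted p = 6.11e-05). Alternative respiration followed with UCP5 (-1.48), NDB2 (-1.40) and AOX1A (-1.13) lower. Against the rest ran G6PD4 of the oxidative pentose phosphate pathway, which rose from 10.4, 13.01 and 9.47 to 76.2, 46.4 and 66.9 (2.51, SE 0.22, adjusted p = 1.23e-06).

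Photorespiration, the salvage of the product of Rubisco's oxygenation, was lower in 8 of 13 genes and higher in 1. The plastid glycolate and glycerate carrier PLGG1 fell from 493, 313 and 520 to 39.5, 64.1 and 51.9 (-3.08, SE 0.24, adjusted p = 3.25e-07). GLDP1, glycine decarboxylase, fell from 1681, 1692 and 1574 to 322, 292 and 323 (-2.40, SE 0.10, adjusted p = 2.81e-09), and GOX1 (-2.49) and SHM1 (-1.85) fell. In sucrose metabolism the synthetic enzyme SPS4F fell from 112, 86.2 and 84.4 to 27.2, 22.8 and 17.7 (-2.07, SE 0.21, adjusted p = 3.81e-06), whereas the invertases CINV1, from 37.7, 37.7 and 59.3 to 194, 178 and 238 (2.20, SE 0.27, adjusted p = 2.31e-05), and CWINV1 (1.42) rose. The sucrose synthases SUS1 to SUS6 lay between -0.33 and 0.48 and did not pass.

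The nitrogen and sulfur assimilation lists held more falls than rises. Of 22 genes of nitrate uptake and assimilation 9 were lower and 3 higher. Nitrate reductase NIA2 fell from 519, 975 and 467 to 111, 323 and 110 (-1.97, SE 0.38, adjusted p = 0.0012), the ammonium transporter AMT1;2 fell from 110, 118 and 90.02 to 17.02, 14.3 and 21.8 (-2.60, SE 0.33, adjusted p = 3.28e-05), and the glutamate dehydrogenase GDH1, which releases ammonium in carbon shortage, rose from 22.7, 22.4 and 21.2 to 83.8, 116 and 104 (2.18, SE 0.23, adjusted p = 4.78e-06). GDH2 rose as well (1.81). In the sulfate list 12 of 27 were lower and none was higher. APR1, which reduces activated sulfate, fell from 125, 111 and 115 to 24.4, 39.8 and 29.3 (-1.94, SE 0.25, adjusted p = 4.34e-05). The kinases AKN2 (-2.72) and AKN1 (-2.16) supply activated sulfate for glucosinolates and other sulfated products, and AKN2 fell from 488, 591 and 538 to 87.1, 108 and 57.0 (SE 0.21, adjusted p = 3.11e-07).

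Aliphatic glucosinolates are the methionine-derived defence compounds of the mustard family, and every one of the 18 genes listed for their synthesis was lower in the dark, with a median of -3.38. For 16 of them the call held with any array left out. The fall covered chain elongation, with IPMI1 at 702, 917 and 714 in the light and 23.4, 81.0 and 19.4 in the dark (-4.54, SE 0.45, adjusted p = 3.25e-06), IPMI2 (-4.17), IMD1 (-4.08), BCAT4 (-3.75) and MAM1 (-3.42). It covered core synthesis too, with CYP79F1 (-3.55), SOT18 (-2.63) and CYP83A1 at 1070, 1281 and 1045 against 89.3, 322 and 45.3 (-3.37, SE 0.61, adjusted p = 0.000667). The plastid importer BAT5 fell by 3.72.

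The MYB activators of this pathway fell unequally. MYB29 read 352, 302 and 181 in the light and 15.9, 33.4 and 10.6 in the dark (-3.91, SE 0.44, adjusted p = 1.13e-05), and MYB28 read 640, 720 and 489 against 430, 344 and 191 (-0.999, SE 0.27, adjusted p = 0.0119). The difference for MYB28 was not past the test in every fit that left out an array. Across the 18 genes, array 2 was the highest of its group for 14 in the light and 14 in the dark, and array 3 was the lowest for 16 in each. Over all probe sets that fell, dark array 2 was the highest for 1902 of 4037. Light and dark arrays did not overlap for any of the 18 genes, as the plot of glucosinolate genes shows.

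**Figure D5:**
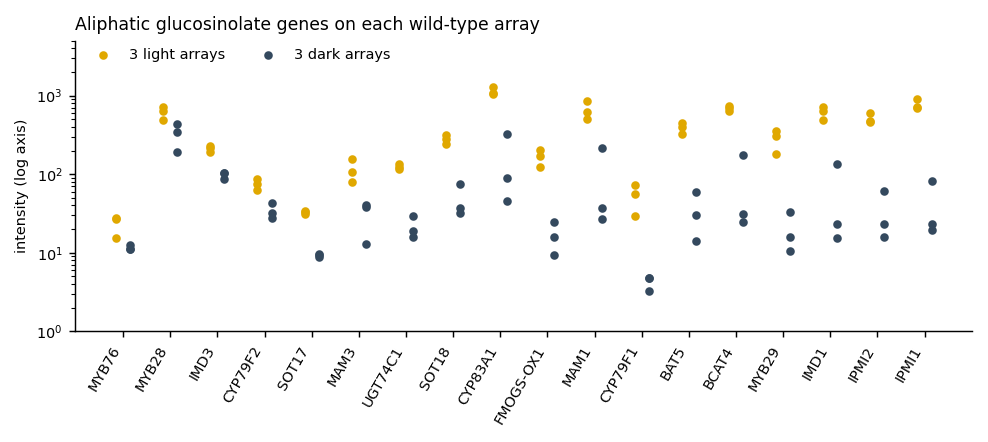
Intensity (log axis) of the 18 genes of aliphatic glucosinolate synthesis on each wild-type array, light arrays in yellow and dark arrays in dark blue, ordered from the smallest to the largest fall. The dark points of CYP83A1 range from 45.3 to 322 and all lie below its light points, 1045 to 1281.

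In the related indole branch 7 of 16 genes were lower and 1 higher. MYB34 (-1.71) and SUR1 (-1.70), the C-S lyase common to both branches, fell, and MYB51 rose (0.84). The camalexin genes CYP71A13 (0.16) and PAD3 (0.18) did not pass. ESP at AT1G54040, which turns glucosinolate breakdown toward nitriles, fell from 72.0, 72.5 and 66.9 to 18.8, 14.1 and 18.1 (-2.06, SE 0.22, adjusted p = 5.91e-06). GSTU20, a glutathione transferase expressed with the aliphatic pathway, fell from 837, 1027 and 847 to 45.9, 124 and 35.3 (-3.94, SE 0.36, adjusted p = 1.47e-06).

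Of 24 phenylpropanoid genes 9 were lower and 2 higher. PAL2, the entry enzyme, fell from 195, 275 and 129 to 55.6, 43.1 and 48.1 (-1.97, SE 0.30, adjusted p = 0.000148), and 4CL3 (-2.35), UGT84A2 (-2.33) and FAH1 (-1.86), of the flavonoid and sinapate branches, fell. Glycosyltransferases of flavonols followed the same direction, UGT78D1 by -3.14 and AT1G06000, from 250, 272 and 132 to 13.1, 11.8 and 11.2, by -4.11 (SE 0.37, adjusted p = 1.23e-06). GSTF12, needed to carry anthocyanin to the vacuole, read 14.2, 108 and 10.7 in the light and 4.39, 2.91 and 2.95 in the dark (-2.92, SE 0.66, adjusted p = 0.00353), with light array 2 far above the others.

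Isoprenoid synthesis differed between compartments. In the plastid list 10 of 20 genes were lower and 1 higher, with the carotenoid enzymes LUT2 at 175, 116 and 136 against 35.2, 62.3 and 44.0 (-1.61, SE 0.26, adjusted p = 0.000219), LUT5 (-1.39) and phytoene synthase PSY (-1.34). In the cytosolic mevalonate and sterol list 7 of 22 were higher and 3 lower, and the rises dropped to 4 without WT light 1 or WT dark 1. HMG1, the HMG-CoA reductase that controls the pathway, rose from 524, 506 and 677 to 2940, 2370 and 2612 (2.22, SE 0.13, adjusted p = 3.23e-08). The sterol methyltransferase SMT3 rose from 16.04, 16.7 and 22.4 to 289, 183 and 288 (3.77, SE 0.25, adjusted p = 7.51e-08).

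Among lipid genes those of synthesis held more falls and those of breakdown more rises. Of 28 genes of plastid fatty acid synthesis and desaturation 10 were lower and 2 higher, and FAD8, a plastid omega-3 desaturase, fell from 272, 148 and 224 to 30.9, 44.1 and 31.1 (-2.58, SE 0.21, adjusted p = 6.51e-07). In the peroxisomal list 8 of 23 were higher and 3 lower. The acyl-CoA oxidases ACX2, from 28.4, 28.8 and 35.8 to 242, 275 and 290 (3.12, SE 0.26, adjusted p = 6.53e-07), and ACX4 (2.61) rose with the lipase SDP1 (1.90), while the thiolase KAT5 fell (-1.96). Wax and cutin genes were lower in 6 of 27 and higher in 2, with KCS2 lowest (-2.04).

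Genes of nucleotide synthesis were mostly lower and those of nucleotide breakdown mostly higher. Of 12 genes of purine and pyrimidine synthesis 10 were lower, among them UMPS, which completes the pyrimidine ring nucleotide, from 140, 133 and 105 to 40.0, 54.4 and 41.2 (-1.48, SE 0.18, adjusted p = 2.49e-05), PYRD (-1.47) and PUR5 (-1.39). The exception was CTPS, a CTP synthase, which rose from 62.0, 30.0 and 71.6 to 167, 183 and 182 (1.80, SE 0.29, adjusted p = 0.000236). Of 11 breakdown genes 7 were higher and none was lower. Allantoinase ALN rose from 41.6, 36.8 and 54.8 to 199, 145 and 148 (1.89, SE 0.19, adjusted p = 2.97e-06), and PYD1 (1.08), XDH1 (0.99) and AAH (0.81) rose.

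Most genes of protein synthesis fell. Over ribosomal proteins, tRNA synthetases and initiation factors together, 247 of 459 genes (53.8%) were lower and 10 higher. Of 373 ribosomal protein genes 220 were lower and 7 higher (median -0.63), so that most single changes were under 2-fold, and 173 of the falls held with any array left out. AT5G24490, annotated as a ribosomal protein of the small subunit of bacterial type, ran against the family and rose from 135, 58.8 and 156 to 859, 749 and 756 (2.87, SE 0.50, adjusted p = 0.000457). tRNA synthetases were lower in 21 of 49 and higher in none, and that count dropped to 11 without WT light 1 and to 10 without WT dark 3. Pentatricopeptide repeat proteins, which process organelle transcripts, were lower in 33 of 257 and higher in 7, a share of falls near the 14.5% of all probe sets, and the falls dropped to 20 without WT light 1.

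Protein turnover and folding genes moved by class. RING and U-box ubiquitin ligases were higher in 110 of 483 and lower in 39, a larger share of rises than the 12.8% of all probe sets. F-box proteins, of which 378 of 556 had a mean under 20, were higher in 44 (7.91%) and lower in 14 (2.52%), below the shares of all probe sets, and the falls dropped to 8 without WT light 3 and 9 without WT dark 3. The RING protein AT5G22920 rose from 39.7, 25.0 and 76.8 to 1217, 1290 and 1464 (4.96, SE 0.55, adjusted p = 9.5e-06), and AT1G02610 (4.59) and AT1G49200 (4.03) rose as well. Proteasome subunits were lower in 7 of 29 and higher in none, and the falls dropped to 4 without WT light 2 and to 3 without WT dark 1. Cytosolic and organellar heat shock proteins were lower in 12 of 24 and higher in none, with the mitochondrial chaperone MTHSC70-2 at 382, 349 and 228 against 75.5, 48.9 and 47.1 (-2.48, SE 0.24, adjusted p = 2.24e-06). DNAJ co-chaperones rose in 20 (16.5%) and fell in 18 (14.9%) of 121 cases, against 12.8% and 14.5% of all probe sets. The chloroplast protein J8 rose from 68.1, 64.8 and 81.8 to 1396, 1242 and 1559 (4.29, SE 0.38, adjusted p = 1.09e-06).

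Of the ascorbate and superoxide genes 11 of 21 were lower and 2 higher. VTC2, which commits GDP-galactose to vitamin C synthesis and is induced by light, fell from 855, 763 and 892 to 220, 212 and 131 (-2.19, SE 0.19, adjusted p = 1.06e-06). Glutaredoxins and thioredoxins were higher in 25 and lower in 29 of 118. AT5G18600 rose from 15.0, 6.58 and 31.5 to 173, 246 and 229 (3.87, SE 0.58, adjusted p = 0.00014), and AT5G11930 fell from 130, 266 and 70.0 to 6.70, 9.00 and 7.19 (-4.15, SE 0.45, adjusted p = 7.08e-06). DNA replication and cell cycle genes were lower in 9 of 23 and higher in 1, with PCNA1 (-1.46) and SMR1 (-1.28) lowest, and the count of falls was 4 or 5 without WT light 1, WT dark 1 or WT dark 3.

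Genes of the cell wall moved in both directions. XTH enzymes, which cut and rejoin xyloglucan during expansion, were higher in 16 of 33 and lower in 3 (median 0.51). XTH15 had the largest rise of the family (5.31), and XTH33 rose from 23.5, 51.6 and 21.8 to 525, 400 and 429 (3.91, SE 0.35, adjusted p = 1.21e-06), whereas XTH31 fell from 457, 295 and 586 to 17.8, 23.6 and 17.8 (-4.46, SE 0.30, adjusted p = 1.03e-07) and XTH32 by -2.97. Expansins, which loosen walls, were higher in 7 and lower in 4 of 34, EXPA8 rising from 23.3, 17.2 and 97.9 to 287, 258 and 424 (3.21, SE 0.64, adjusted p = 0.00143) and EXPA1 by 2.53, with EXPA5 falling (-2.23). The galactosidase BGAL4 (6.31) and the xylosidases BXL1 (5.45) and BXL2 (3.78) rose, the mannan synthase-like gene CSLA01 fell by 3.48, and the lipid transfer protein AT1G55260 fell from 396, 199 and 513 to 15.3, 11.6 and 25.9 (-4.37, SE 0.36, adjusted p = 6.1e-07).

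Among transporters, sugar carriers showed the clearest single changes. STP1 (AT1G11260), a hexose-proton symporter of the plasma membrane, read 98.8, 103 and 106 in the light and 1702, 1668 and 1871 in the dark (4.09, SE 0.15, adjusted p = 4.6e-10), and STP14 rose by 2.89. The sugar exporter genes SWEET13, from 163, 120 and 95.5 to 10.98, 12.5 and 7.86 (-3.59, SE 0.26, adjusted p = 2.2e-07), and SWEET4 (-2.68) fell. The family as a whole had 14 of 73 higher and 10 lower, and the rises dropped to 9 without WT light 1, WT light 3 or WT dark 1. Aquaporins were higher in 8 and lower in 4 of 37, with PIP1C from 250, 186 and 442 to 1283, 1209 and 1462 (2.26, SE 0.27, adjusted p = 1.85e-05) and PIP3 (2.16). MATE carriers were lower in 15 and higher in 2 of 55, AT4G21910 by -2.99, and the oligopeptide transporter OPT6 rose by 2.39 while the iron-related OPT3 fell by 2.04.

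Of 56 glutathione transferases 17 (30.4%) were lower and 4 higher. Cytochromes P450, with 25 of 213 lower (11.7%) and 13 higher, and glycosyltransferases, with 22 of 131 lower (16.8%) and 14 higher, lay near or below the 14.5% of all probe sets that fell. CYP706A6 fell from 465, 351 and 422 to 37.5, 35.5 and 35.4 (-3.50, SE 0.21, adjusted p = 3.83e-08) and CYP89A2 by -3.03. Class III peroxidases went the other way, 12 of 65 higher and 3 lower, with AT3G32980 rising by 3.82.

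Among signaling proteins, the CIPK and SnRK kinases and their subunits were higher in 7 of 31 and lower in 1, and all 8 calls held with any array left out. KING1, an SnRK1-interacting gamma-type subunit, rose from 81.3, 90.5 and 122 to 503, 420 and 448 (2.24, SE 0.23, adjusted p = 4.43e-06), and CIPK7 fell by 2.22. MAP kinase cascade members were higher in 14 of 45 and lower in 2, MPK17 by 1.65, with MPK19 at 424, 492 and 256 against 96.2, 101 and 90.6 (-1.97, SE 0.27, adjusted p = 5.69e-05). PP2C phosphatases of all clades were higher in 19 and lower in 6 of 63 (2 lower without WT dark 3), led by AT3G05640 at 14.04, 9.61 and 11.3 against 127, 93.2 and 110 (3.24, SE 0.19, adjusted p = 2.64e-08). Leucine-rich repeat receptor kinases were lower in 27 (14.8%) and higher in 18 (9.84%) of 183, against 14.5% and 12.8% of all probe sets. SUB fell by 2.84.

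Primary transcripts of microRNA loci were represented by 172 probe sets, 121 of them with a mean under 20, and 14 were higher and 11 lower, shares below those of all probe sets. The rises dropped to 9 without WT light 1, and 6 of the 14 held with any array left out. MIR172a read 65.6, 34.1 and 63.6 in the light and 512, 453 and 415 in the dark (3.13, SE 0.21, adjusted p = 9.66e-08). Of the AP2-type genes that miR172 is known to target, RAP2.7 fell by 2.05 and SNZ by 2.44. MIR398c fell from 196, 229 and 108 to 18.6, 33.5 and 22.1 (-2.82, SE 0.29, adjusted p = 4.08e-06), and its targets CSD1 (-0.19) and CSD2 (0.06), copper and zinc superoxide dismutases, did not pass. These 4 target genes were named after their values had been seen. Other known targets of the 2 microRNAs are not given here, so the 4 genes do not show how the targets moved as a set. The array measures precursor transcripts at these loci and not the mature microRNAs.

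Among the largest changes over all probe sets were genes outside the groups above. AT3G15450, annotated as an aluminium-induced protein, rose from 12.1, 17.7 and 23.2 to 1514, 1702 and 1898 (6.63, SE 0.22, adjusted p = 3e-10). The subtilase AT5G59130 fell from 178, 186 and 147 to 6.04, 5.92 and 6.23 (-4.81, SE 0.16, adjusted p = 2.54e-10). For both genes the arrays of a group lay within 2-fold of each other. The defence-related genes ACD6, at 968, 1334 and 687 against 21.0, 53.6 and 41.6 (-4.74, SE 0.49, adjusted p = 4.56e-06), and PCC1, at 1206, 2266 and 1315 against 21.2, 264 and 28.5 (-4.82, SE 0.76, adjusted p = 0.000223), were among the largest falls.

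For nearly every gene the wild-type response was not distinguished from that of dcl1-9. A limma test of the difference of the dark responses was past an adjusted p of 0.05 for 29 of 27827 probe sets (0.104%), and a value that misses this test does not show that the genotypes responded alike. Among the genes described here it was past the threshold for CKX5, whose rise of 3.76 in wild type stood against 2.05 in dcl1-9, and for HSFA7A, with 2.51 against 0.99.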

How the data were processed

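Total RNA of 3 biological replicates of each group was measured on the Affymetrix Arabidopsis Gene 1.1 ST array. The deposited intensities are linear, one for each gene and array, and per the paper's methods the authors checked the arrays in Expression Console, normalized them to a baseline array by the invariant-set method of dChip and modelled perfect-match probes with a custom gene-level probe definition; versions are not given in the sources used here. The deposited ratio columns hold the authors' own fold changes with confidence bounds and were not used, and 12 columns of that table repeating array values were not used either. The group means and standard errors it holds entered only the alternative that applies the methods' criterion. The precision of a value is limited by the 3 arrays of each group.

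Values under 1 were set to 1 and taken to log2. A limma 3.58.1 model in R 4.3.3 with 4 group means over 12 arrays (8 residual degrees of freedom), an intensity trend in the variance and p-values adjusted over all 27827 probe sets (Benjamini-Hochberg) gave the dark minus light contrast of wild type, that of dcl1-9 and their difference, at an adjusted p of 0.05. On simulated data for the wild-type contrast over 27827 probe sets, 100 genes were changed by log2 1 and 100 by log2 2. All of them had a mean intensity of at least 20. Recovery was 54% at log2 1 and 96% at log2 2, with 6 false calls. In the data far more genes were called and many were dimmer, so these rates do not carry over to them. Replicates are labelled as biological, so p-values measure the spread between such samples. Gene lists were written from textbook roles and matched by symbol (963 of 1007 entries) or description (40), with 4 left out. Families were taken by words in the deposited annotation. Members and lists were chosen with earlier results of these data known. Genes named were drawn from the 15 largest rises and 15 largest falls with no overlap of the arrays, up to 4 members of each list or family with the largest differences past the test and no overlap, and any member of a list of at most 20 genes; not every gene picked is named, and exceptions are stated. Locus codes are those of the annotation, whose digit after AT is the chromosome. No sequences were printed. Alternatives were another offset (16), no variance trend, removal of genes averaging under 20, quantile normalization, centring on the median, a test against 1.2-fold, wild-type arrays alone, a replicate block, leaving out each array, and the criterion of the methods (a fold change whose lower bound at 90% confidence exceeds 1.2).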

Additional observations from a re-analysis of the deposited data

Results flagged for a closer look

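The difference of the dark responses (dcl1-9 minus wild type) was past the limma test for 29 of 27827 probe sets, and 7 of these were members of the lists and families described above. BGLU28, a beta-glucosidase, had a log2 dark response of -0.20 in wild type and -5.13 in dcl1-9, a difference of -4.93 (adjusted p = 0.000397), and its mean light intensity was 12.5 in wild type and 634 in dcl1-9. SDI1, a protein induced by sulfur deficiency, responded by 0.12 and -3.99, a difference of -4.12 (adjusted p = 0.00122), with light means of 16.4 and 398. CSLG3, a cellulose synthase-like gene, fell in both genotypes, by 2.30 and 5.05, a difference of -2.76 (adjusted p = 0.0316). The dark means of these 3 genes were between 6.61 and 25.6 in both genotypes, so the responses differed mainly through the light values.

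SIP1;2, an aquaporin, responded by 0.55 in wild type (adjusted p = 0.051) and -1.23 in dcl1-9, a difference of -1.79 (adjusted p = 0.0204). CKX5 differed by -1.71 (adjusted p = 0.0433), HSFA7A by -1.52 (adjusted p = 0.0489), and the amino acid permease AAP1 by -1.35 (adjusted p = 0.0173), with a response of 1.30 in wild type and -0.05 in dcl1-9. The mutant carries its own light-grown differences, and their part in these results was not tested.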

How the results depend on the processing

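The count of 7612 probe sets called in wild type was 7642 with log2(value + 16), 8153 after quantile normalization, 7742 after median centring, 7594 without probe sets of low mean, 7304 without the variance trend, 6718 with wild-type arrays alone and 6622 by the methods' criterion (6469 shared with the main calls). Tested against 1.2-fold it was 4913, with 2224 higher and 2689 lower. With single arrays left out, 6274 to 7817 were called, 2968 to 3712 higher and 3306 to 4105 lower. The difference of the responses, 29 probe sets, was 66 with log2(value + 16), 15 without the trend, 19 against 1.2-fold, 77 with the replicate block and 8 to 39 with single arrays left out. With the replicate number as a block 9006 probe sets were called in wild type, 7603 of them among the 7612. The labels do not say that a number marks a shared day, and the main model treated the samples as sharing only a number. Deviations of same-numbered light and dark arrays correlated at 0.039, 0.24 and 0.202. Those of different-numbered arrays correlated at -0.209 to 0.008. Whether same-numbered arrays share a day or batch was not tested.

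Of 499 named genes none reversed under any alternative. The test against 1.2-fold lost 48 of their calls, leaving out 1 wild-type array lost 22 to 26, wild-type arrays alone 13 and no variance trend 7. Of 125 list counts of at least 5, the number that moved by over 1.5 times was 49 against 1.2-fold, 15 without WT light 1, 9 by the methods' criterion, 8 without WT dark 1 or WT dark 3, 7 without WT light 3, and 6 without WT light 2 or with wild-type arrays alone. The cause was not tested. The sign of the median turned under another scaling only for clade A phosphatases, wax and cutin, bHLH, small heat shock proteins, glutaredoxins and thioredoxins, and receptor kinases, all near 0. Probe sets with a mean under 20 are 33% of the array, and 5.7% of them were called.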

Other observations

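Iron homeostasis genes formed a list written after their values had been seen. Of 22 genes 5 (22.7%) were higher and 10 (45.5%) lower in the dark, with a median of -0.02, against 12.8% and 14.5% of all probe sets. Since the list followed the values, its counts are not independent of them. The iron-deficiency factors bHLH100 and bHLH39 fell furthest, bHLH100 (AT2G41240) from 320, 119 and 225 to 10.2, 5.97 and 5.83 (-4.85, SE 0.42, adjusted p = 9.5e-07) and bHLH39 (AT3G56980) from 192, 93.4 and 215 to 12.1, 8.02 and 7.15 (-4.15, SE 0.35, adjusted p = 7.57e-07). NAS4, a nicotianamine synthase (-2.90), the phloem iron transporter OPT3 (-2.04), the ubiquitin ligase BTS (-1.999) and the reductase FRO3 (-1.43) fell as well. The ferritin FER1, an iron store (2.04), the reductase gene FRO6 (2.44) and the transporters YSL3 (1.78) and YSL1 (1.31) rose, while the ferritin FER3 fell (-1.26). FIT, the root regulator of iron uptake (0.42), and FRO2 (-0.05) did not pass.

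Genes that respond to low oxygen were likewise listed after their values had been seen, so these counts too are not independent of the values. Of 24 genes 8 (33.3%) were higher and none was lower, with 10 of them at a mean under 20. The shares of all probe sets were 12.8% and 14.5%. AT1G33055 read 4.72, 6.72 and 6.15 in the light and 305, 307 and 366 in the dark (5.81, SE 0.29, adjusted p = 7.15e-09), and AT4G27450 rose from 15.8, 18.8 and 25.5 to 804, 1050 and 1190 (5.67, SE 0.22, adjusted p = 9.44e-10). LBD41 (3.07), the cysteine oxidase PCO1 (2.15), the ERF gene HRE1 (2.07) and the hemoglobin HB1 (1.78) rose. The fermentation genes ADH1 (0.27) and PDC1 (-0.15) and the sucrose synthases SUS1 (-0.33) and SUS4 (0.48) did not pass. Leaves of both groups floated on water, and oxygen was not measured.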
